A study of Mus musculus with 7 samples.

Results

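The cytosolic heat shock proteins were followed in mouse long-term haematopoietic stem cells through 10 genes. They were chosen by symbol as well-known inducible or constitutive members of the cytosolic chaperone system: Hspa1a, Hspa1b, Hspa8, Hsp90aa1, Hsp90ab1, Dnajb1, Dnaja1, Hsph1, Hspb1 and Bag3. All 10 were among the 19649 genes of the deposited table of normalized counts, and all 10 were among the 16047 genes that passed the filter of at least 10 normalized counts in at least 3 libraries. A normalized count is the number of reads assigned to a gene divided by a size factor of the library. The 3 mutant libraries, titled DEL52_6244, DEL52_6246 and DEL52_OT1865, were Calr fl/fl with MxCre, which the labels also write as Calr del52/del52, and the 4 wild-type libraries, titled Mx1_Cre6261, Mx1_Cre6266, Mx1_Cre1 and Mx1_Cre2, carried Calr +/+ MxCre. The del52 allele changes the C terminus of calreticulin, a chaperone of the endoplasmic reticulum (ER). MxCre is a Cre recombinase whose promoter answers to interferon. All mice, wild-type included, received pI:pC, a double-stranded RNA mimic that induces it. Cells were sorted 14 days after induction began as cells with Kit, Sca-1 and CD150 and without lineage markers or CD48, and no drug was given. The promoter acts in many interferon-responsive tissues, so recombination was not restricted to the stem cells, and the mutant genotype is homozygous. The sources used here give neither the age nor the number of the animals and do not say whether the libraries are separate animals. The p-values thus cover the spread between these libraries only.

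The titles of DEL52_6244 and DEL52_6246 and of Mx1_Cre6261 and Mx1_Cre6266 share a run of numbers, called the 62xx titles below, and those of DEL52_OT1865 and Mx1_Cre1 and Mx1_Cre2 do not. The sources used here do not say what this run of numbers stands for. The libraries held 21325340 to 28710304 counted reads. The 10 stem cell markers that were examined had reads in every library, with a sum of 38804 to 42559 normalized counts in mutant libraries and of 37842 to 67443 in wild-type libraries. Mx1_Cre6261 and Mx1_Cre6266 stood apart from the other 5 libraries. Kit, the stem cell factor receptor used in the sort, had 26511 and 25305 normalized counts there, against 2976 to 6677 elsewhere. The slope of gene deviations on exonic length was 0.242 and 0.244 in these libraries and between -0.175 and 0.010 in the others. The comparison of the 10 members is therefore also given against each wild-type pair. Calr, the edited gene, had 14239, 15724 and 15317 normalized counts in DEL52_6244, DEL52_6246 and DEL52_OT1865, against 15922, 15965, 18606 and 16639 in Mx1_Cre6261, Mx1_Cre6266, Mx1_Cre1 and Mx1_Cre2. Its log2 difference of -0.15 did not pass an exact permutation test over the 35 splits (two-sided p = 0.0857, where the smallest possible is 0.0286). Summed FPKM gave -0.13 and an exact p of 0.0286. The allele alters coding sequence and need not alter the transcript level.

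Cells meet misfolded protein in the cytosol with a small set of chaperones. HSP70 proteins bind exposed hydrophobic stretches in an ATP-driven cycle, J-domain proteins (HSP40) deliver clients and start the ATP hydrolysis, and HSP110 and BAG proteins exchange the nucleotide so that the client is let go. HSP90 takes over partly folded clients such as kinases and hormone receptors, and small heat shock proteins hold unfolded protein in solution. The constitutive members, such as Hspa8 and Hsp90ab1, are made in nearly all cells, whereas the inducible ones, above all Hspa1a and Hspa1b, are switched on by heat shock factor 1 (HSF1), which binds repeats of the letters GAA and TTC called heat shock elements.

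Promoters are shown so that the members that were high in the same libraries can be compared by sequence. A window of 250 bases before to 50 bases after a start site was found for 7 members in the RefSeq table of GRCm38.p6 (Hspa1a, Hspa1b, Dnajb1, Dnaja1, Hsph1, Hspb1 and Bag3). Hspa8, Hsp90aa1 and Hsp90ab1 were not among them. The windows were searched for GAANNTTC and TTCNNGAA, each of which reads the same on both strands. In the 250 bases before the start alone, 6.69% of all 32851 windows had GAANNTTC, 7.17% had TTCNNGAA, and 12.8% had one or the other. No such share was taken for the bases after the start. The upstream part of the Hspa1a window (chr17:34972157-34972406, minus strand, GRCm38.p6) and stretches of the Hspb1 (chr5:135887790-135887841, plus strand) and Dnaja1 windows (chr4:40722333-40722362, plus strand) follow, 5′ to 3′, with the matches to GAANNTTC in capitals.
Hspa1a: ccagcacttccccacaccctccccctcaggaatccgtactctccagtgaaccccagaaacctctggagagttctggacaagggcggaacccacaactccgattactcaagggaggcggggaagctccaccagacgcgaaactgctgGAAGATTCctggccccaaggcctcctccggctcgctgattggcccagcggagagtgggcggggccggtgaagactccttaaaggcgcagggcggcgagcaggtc
Hspb1: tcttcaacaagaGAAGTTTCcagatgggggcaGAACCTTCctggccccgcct
Dnaja1: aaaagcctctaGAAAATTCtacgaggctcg
The match in Hspa1a lay at -104 to -97 from the start site, and that in Hspa1b at the same place. The windows of these 2 genes, which are near copies of each other, differed at 4 of 300 positions. Hspb1, one of the members that varied most between libraries, had matches at -117 to -110 and -97 to -90. Dnaja1, the member that varied least, had a match at -124 to -117 of a RefSeq start site, within the span of the gene in GENCODE. Hsph1 has more than 1 start site. From one of them, TTCTCGAA lay at -54 to -47, and TTCTGGAA at 16 to 23 overlapped GAAAGTTC at 21 to 28 after the start. Bag3 had GAAGTTTC at 43 to 50 after its start. Dnajb1, which varied over 3 log2 units, had neither motif in its windows. The matches describe the sequence only, and binding was not measured in these samples.

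Hspa1a and Hspa1b encode the inducible HSP70 and lie side by side on chromosome 17 (chr17:34969190-34972156 and chr17:34956436-34959238, minus strand, GRCm38), each as 1 exon. Hspa1a had 2124, 8055 and 85.8 normalized counts in DEL52_6244, DEL52_6246 and DEL52_OT1865, against 5186 and 3650 in Mx1_Cre6261 and Mx1_Cre6266 and 1.09 and 7.27 in Mx1_Cre1 and Mx1_Cre2. The last 2 values rest on 1 and 7 reads. High and low libraries occurred in both genotypes and the groups overlapped, although Mx1_Cre1 and Mx1_Cre2 lay below every mutant library and DEL52_6246 lay above every wild-type one. Hspa1b had 4119, 12434 and 172 normalized counts in the mutant libraries, in the same order, against 8717 and 5929 in Mx1_Cre6261 and Mx1_Cre6266 and 25.1 and 49.9 in Mx1_Cre1 and Mx1_Cre2. The 4 libraries with 62xx titles held between 4119 and 12434, and the 3 others held between 25.1 and 172. Over all libraries the mutant mean of Hspa1a was 3422 ± 4140.3 (SD, n = 3) and the wild-type mean was 2211 ± 2624 (SD, n = 4). The log2 difference of log2(normalized count + 1) was 3.08 with a standard error (SE) of 2.97, and limma, with p-values adjusted over all 16047 genes, did not call it (adjusted p = 0.614). For Hspa1b it was 2.01 (SE 2.36, limma, adjusted p = 0.670). Both values depended on single libraries and on the model. Hspa1a had 1.08 without Mx1_Cre1 and 4.94 without DEL52_OT1865, and 0.62 with edgeR. Hspa1b had 0.58 without Mx1_Cre1 and 3.81 without DEL52_OT1865, and 0.59 with edgeR. With the length slope in the model, limma called both, at 7.88 for Hspa1a (adjusted p = 0.00366) and 5.78 for Hspa1b (adjusted p = 0.00869). That slope was 0.242 and 0.244 in Mx1_Cre6261 and Mx1_Cre6266 and at most 0.010 elsewhere, so this fit largely sets that pair apart. Against Mx1_Cre1 and Mx1_Cre2 the differences were 8.10 and 5.83, and neither was called. In these bulk samples, fewer cells of a kind and less RNA per cell cannot be told apart.
These copies share sequence: 58.8% of the 50-base stretches of the Hspa1a transcript also occur in Hspa1b. The sources used here do not say how shared reads were divided, so the sum of both is the safer value. In FPKM, which is scaled by transcript length, the sum of Hspa1a and Hspa1b was 12.3%, 33.2% and 0.50% of that of Hspa8 in DEL52_6244, DEL52_6246 and DEL52_OT1865. It was 23.2% and 16.8% in Mx1_Cre6261 and Mx1_Cre6266, and 0.0502% and 0.115% in Mx1_Cre1 and Mx1_Cre2. In the libraries with 62xx titles the inducible form thus reached at least 12.3% of the constitutive one in both genotypes.

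Hspa8 encodes HSC70, the constitutive HSP70 that serves folding, clathrin uncoating and chaperone-mediated autophagy (chr9:40800984-40810087, plus strand). It had 29511, 34789.5 and 29534 normalized counts in the mutant libraries, against 33373 and 31359 in Mx1_Cre6261 and Mx1_Cre6266 and 29248 and 27390.1 in Mx1_Cre1 and Mx1_Cre2. The groups overlapped, and the log2 difference was 0.04 (SE 0.16, limma, adjusted p = 0.895). Hspa8 shares 74.8% of its 50-base stretches with other annotated genes, mostly processed copies such as Gm15459, so its count depends on how such reads were assigned.

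HSP90 has an inducible form, Hsp90aa1 (chr12:110690605-110702728, minus strand), and a constitutive form, Hsp90ab1 (chr17:45567775-45573271, minus strand). Hsp90aa1 had 25633, 23046 and 25369 normalized counts in the mutant libraries, against 19609 and 16108 in Mx1_Cre6261 and Mx1_Cre6266 and 21750 and 19880 in Mx1_Cre1 and Mx1_Cre2. Every mutant library lay above every wild-type library. Hsp90aa1 was the 1 member of 10 with this pattern, which was found in 5.23% of all tested genes, and in 0 members the mutant libraries lay below the wild-type ones, as 4.34% of tested genes did. Its means were 24683 ± 1423 (SD, n = 3) in mutant and 19337 ± 2354 (SD, n = 4) in wild-type libraries. The log2 difference of 0.36 (SE 0.16) was not called (limma, adjusted p = 0.538, unadjusted p = 0.0590). Hsp90aa1 shares 58.5% of its 50-base stretches with other annotated genes, mostly Gm12346, so its count depends on how such reads were assigned. Hsp90ab1, the most abundant member per length, had 50549, 58998 and 55859 normalized counts in the mutant libraries, against 48461 and 48424 in Mx1_Cre6261 and Mx1_Cre6266 and 51228 and 44573 in Mx1_Cre1 and Mx1_Cre2. Only Mx1_Cre1 lay above the lowest mutant library. Its log2 difference was 0.19 (SE 0.15, limma, adjusted p = 0.564).
The scale changed which of the HSP90 genes had separate groups. In FPKM summed over transcripts, Hsp90ab1 had 1127, 1210.3 and 1348 in the mutant libraries, against 930.2 and 929 in Mx1_Cre6261 and Mx1_Cre6266 and 1059 and 959.7 in Mx1_Cre1 and Mx1_Cre2. These groups did not overlap, a pattern found in 5.36% of genes on this scale in that direction and in 3.76% in the other. Hsp90aa1 had 865, 756 and 1016 FPKM in the mutant libraries, against 541 and 481 in Mx1_Cre6261 and Mx1_Cre6266 and 801 and 738 in Mx1_Cre1 and Mx1_Cre2, and here DEL52_6246 lay below Mx1_Cre1. Neither difference was called in FPKM (limma, adjusted p = 0.529 for Hsp90aa1 and 0.552 for Hsp90ab1).

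Dnajb1, Dnaja1 and Hsph1 are partners of HSP70. Dnajb1, the heat-inducible HSP40 (chr8:83608193-83612653, plus strand), had 6731, 19390.5 and 6040.4 normalized counts in the mutant libraries, against 29953 and 24164 in Mx1_Cre6261 and Mx1_Cre6266 and 3668 and 4615 in Mx1_Cre1 and Mx1_Cre2. The mutant libraries lay between the wild-type pairs. The log2 difference over all libraries was -0.19 (SE 0.81, limma, adjusted p = 0.912). Dnaja1, a farnesylated HSP40 made constitutively (chr4:40722150-40737149, plus strand), had 5443, 5688 and 6040.4 normalized counts in the mutant libraries, against 5435 and 5141.5 in Mx1_Cre6261 and Mx1_Cre6266 and 5912 and 5532 in Mx1_Cre1 and Mx1_Cre2. All 7 values lay within 1.17-fold of each other, with overlapping groups and a log2 difference of 0.06 (SE 0.14, limma, adjusted p = 0.841). Hsph1, which encodes HSP110, the exchange factor of HSP70 (chr5:149614287-149636376, minus strand), had 1516, 2069 and 1669 normalized counts in the mutant libraries, against 2685 and 3159 in Mx1_Cre6261 and Mx1_Cre6266 and 2102 and 1909 in Mx1_Cre1 and Mx1_Cre2. Only DEL52_6246 reached above the lowest wild-type library. The log2 difference was -0.48 (SE 0.22, limma, adjusted p = 0.538).

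Hspb1 and Bag3 act on misfolded protein beside HSP70. Hspb1, the small heat shock protein HSP25 (chr5:135887919-135889563, plus strand), had 182, 458 and 32.6 normalized counts in the mutant libraries, against 186 and 146 in Mx1_Cre6261 and Mx1_Cre6266 and 25.1 and 13.5 in Mx1_Cre1 and Mx1_Cre2. Its level was low throughout, and 51.6% of its 50-base stretches also occur in the pseudogene Hsp25-ps1. The log2 difference was 1.31 (SE 1.123, limma, adjusted p = 0.582), with overlapping groups. Bag3, the co-chaperone that couples HSP70 and small heat shock proteins to selective autophagy (chr7:128523616-128546981, plus strand), had 583, 562 and 491 normalized counts in the mutant libraries, against 755 and 675 in Mx1_Cre6261 and Mx1_Cre6266 and 507 and 391 in Mx1_Cre1 and Mx1_Cre2. Its groups overlapped as well, and the log2 difference was -0.05 (SE 0.26, limma, adjusted p = 0.922).

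**Figure D1:**
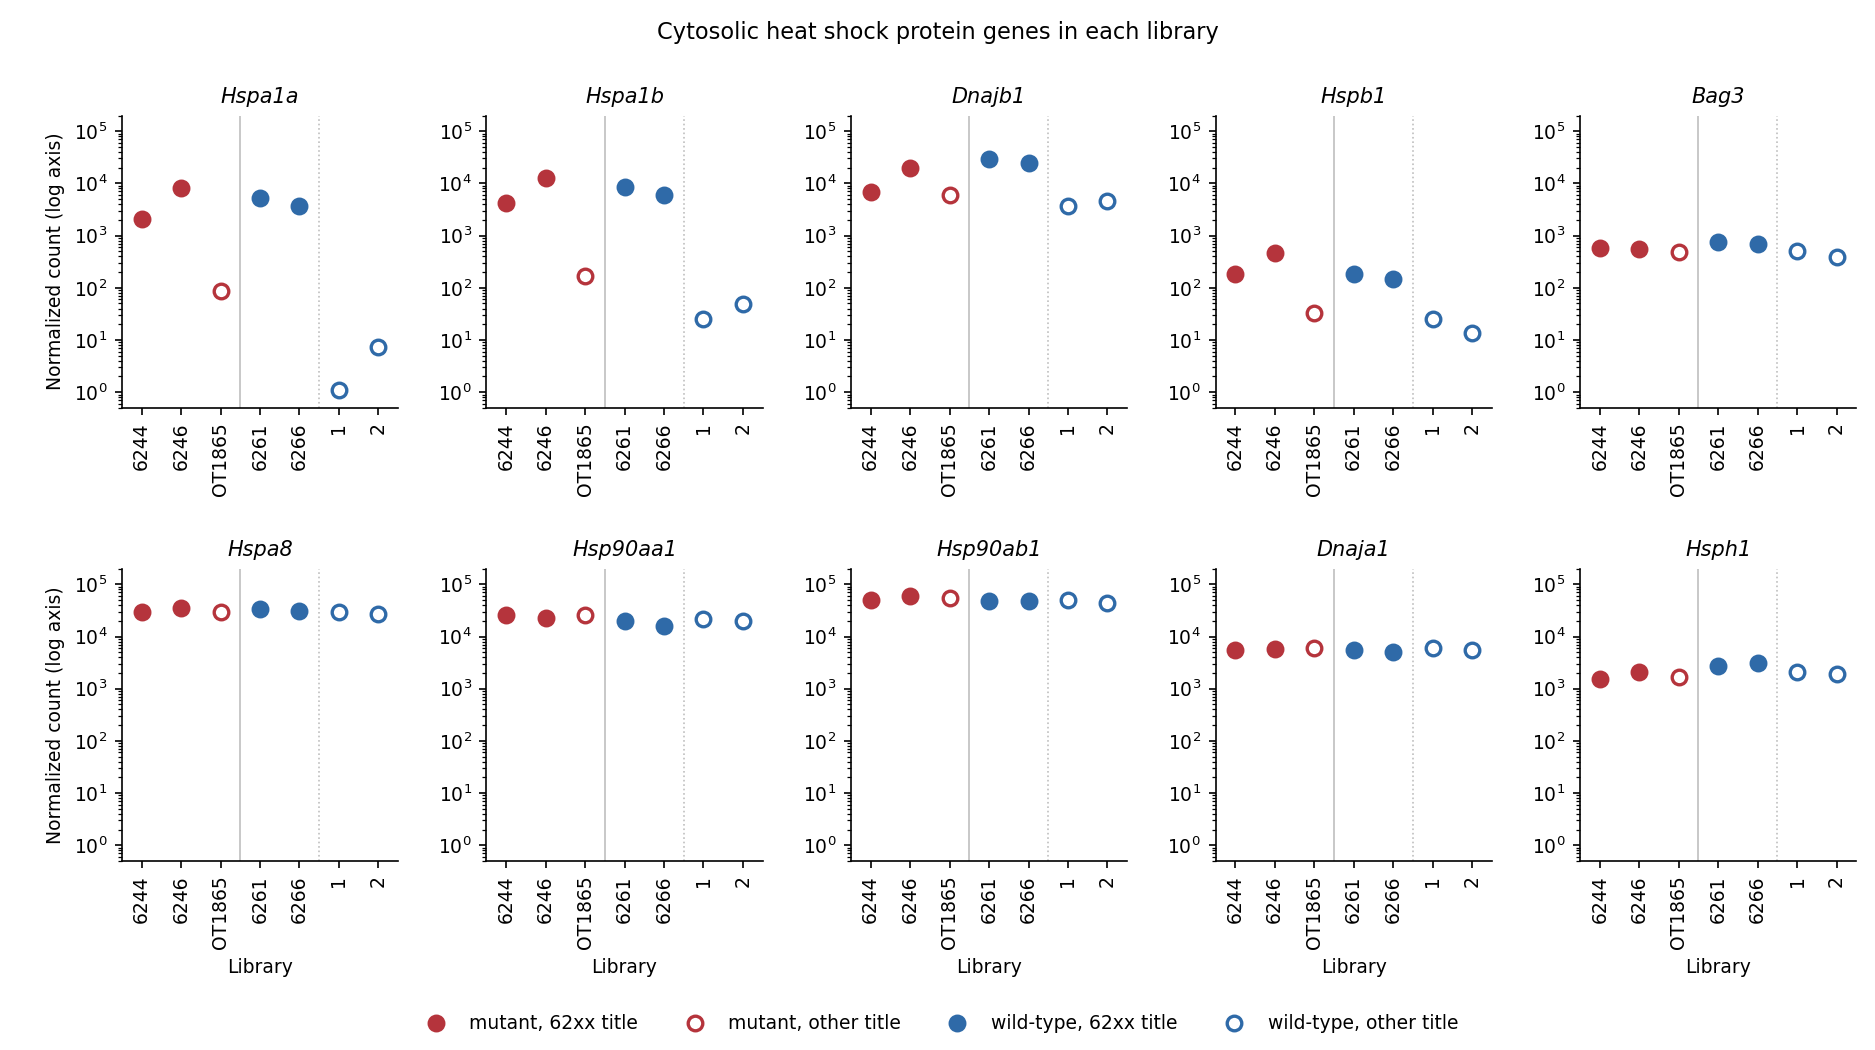
Normalized count (log axis) of each of the 10 genes in each library, with mutant libraries (red) left of wild-type libraries (blue), filled points for 62xx titles and open points for the others. Hspa1a spans 1.09 to 8055 and Hspa1b 25.1 to 12434, with the filled points above the open ones in both genotypes, while Hspa8, Hsp90aa1, Hsp90ab1 and Dnaja1 are nearly level.

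Over all 7 libraries, limma called 0 of the 10 members and 0 of the 16047 tested genes (0%), with 0 members and 1365 genes at an unadjusted p under 0.05. EdgeR on the recovered reads also called 0 (0%), with 1639 genes unadjusted, and DESeq2 called 107 genes (0.667%) and 0 members. Limma with the title series in the model called 3597 genes and 1 member, Hsph1 at -0.54 (adjusted p = 0.0452). With the length slope in the model it called 127 genes and 4 members, Hspa1a, Hspa1b, Dnajb1 at 1.13 and Hspb1 at 2.99. That slope largely sets Mx1_Cre6261 and Mx1_Cre6266 apart, and against Mx1_Cre1 and Mx1_Cre2 Dnajb1 had 1.17 and Hspb1 2.86. Of the members, 7 had positive and 3 had negative differences, with a median of 0.13, against a median of 0.00 over all tested genes.

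The members differed widely in how much they varied between libraries. On the log2(normalized count + 1) scale, Hspa1a ranged over 11.91 log2 units between its lowest and highest library, the widest range of all 16047 tested genes. Its lowest value is set by 1 read, and with 8 in place of 1 added to each count the range was 9.79, still the widest. Hspa1b ranged over 8.89 units, and only 6 genes, itself included, ranged as widely. Hspb1 ranged over 4.98 units, a width reached by 0.71% of tested genes, and Dnajb1 over 3.03 units, reached by 5.38%. Hsph1, Bag3 and Hsp90aa1 ranged over 1.06, 0.95 and 0.67 units, below the median of 1.23 over all tested genes. At the other end, Hsp90ab1 ranged over 0.40, Hspa8 over 0.34 and Dnaja1 over 0.23 units. Of all tested genes, 97.0% varied at least as much as Hspa8 and 99.4% at least as much as Dnaja1.

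**Figure D2:**
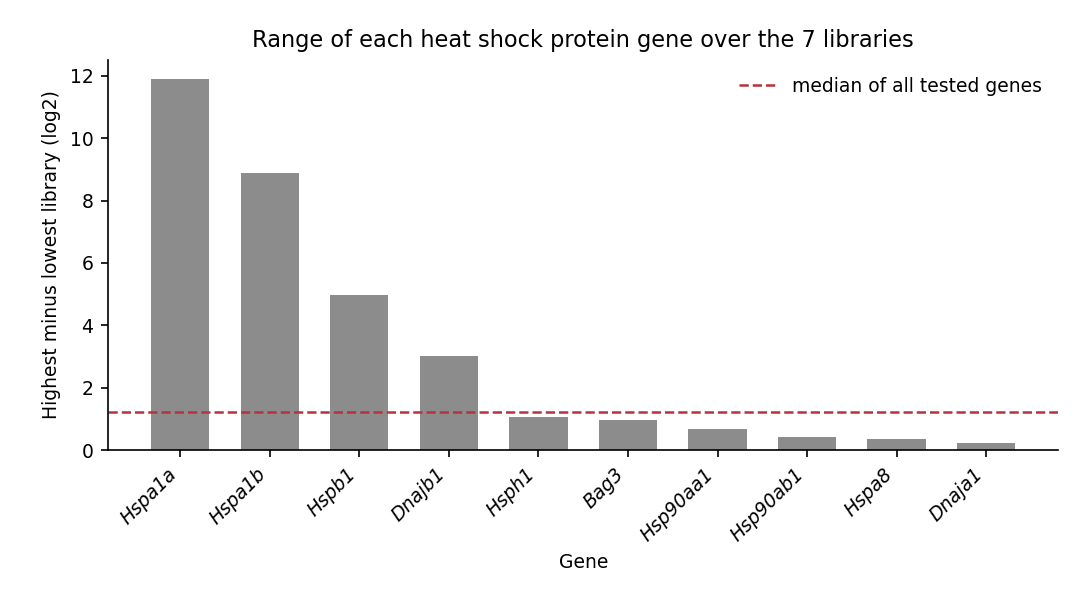
Range of log2(normalized count + 1) over the 7 libraries for each gene (bars), with the median of all tested genes (dashed line, 1.23). Hspa1a (11.91), Hspa1b (8.89), Hspb1 (4.98) and Dnajb1 (3.03) lie above the line and the other 6 genes lie below it.

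The variation of 5 members followed the titles of the libraries, and that of Hsp90aa1 did not. In Hspa1a, Hspa1b, Dnajb1, Hspb1 and Bag3 all 4 libraries with 62xx titles lay above all 3 others, so 5 of 10 members showed this order, against 11.6% of all tested genes. The reverse order was seen in 0 members and in 12.2% of tested genes. For Dnajb1 and Bag3 the gap was narrow: the lowest library with a 62xx title had 6731 and 562 normalized counts, and the highest without had 6040.4 and 507. The sum of the stem cell markers had the first order too, with 41397 to 67443 normalized counts with 62xx titles and 37842 to 39513 without. Kit alone held 26511 and 25305 of these counts in Mx1_Cre6261 and Mx1_Cre6266. The mean log2 deviation of the stem cell list, which weights genes equally, did not keep that order. It was -0.11 in DEL52_6246, below the -0.09 in DEL52_OT1865. Of the 7 lists of markers of other cells, 2 had sums with all 62xx titles above the others. The sums of the erythroid and of the T or NK cell markers had the reverse order. The mean log2 deviation of the erythroid list did not keep it, with 0.68 in DEL52_6244 and 0.74 in Mx1_Cre6261, above 0.03 in DEL52_OT1865. That of the T or NK cell list did, with 0.14 in DEL52_6244, the highest with a 62xx title, and 0.25 in Mx1_Cre1, the lowest without. The endothelial or stromal markers, 4 of 6 of them in the table, summed to 1000.7 and 997 normalized counts in DEL52_6244 and DEL52_6246 and to 840 in DEL52_OT1865. They summed to 1587 and 1531 in Mx1_Cre6261 and Mx1_Cre6266 and to 779 and 721 in Mx1_Cre1 and Mx1_Cre2. Pecam1, which stem cells also express, made up most of this sum, followed by Kdr, with 151, 92.9 and 127 normalized counts in the mutant libraries, against 214 and 183 in Mx1_Cre6261 and Mx1_Cre6266 and 37.1 and 70.6 in Mx1_Cre1 and Mx1_Cre2. The mean log2 deviation of the same list, which weights genes equally, did not keep that order, with -1.06, -0.96 and 0.60 in the mutant libraries, against 1.01 and 0.69 in Mx1_Cre6261 and Mx1_Cre6266 and -0.24 and -0.03 in Mx1_Cre1 and Mx1_Cre2. Of the stromal markers, Cxcl12 was at 0 in DEL52_6244 and Col1a1 held at most 12.51 normalized counts in any library. The progenitor markers, 4 of 4 in the table, summed to 17158 and 17622 in DEL52_6244 and DEL52_6246 and to 14575 in DEL52_OT1865. They summed to 14893 and 16354 in Mx1_Cre6261 and Mx1_Cre6266 and to 13889 and 13915 in Mx1_Cre1 and Mx1_Cre2. Cd34 made up most of this sum, while Cd48, excluded in the sort, was highest in Mx1_Cre1, at 241 normalized counts. The mean log2 deviation of this list did not keep the order either. It was 0.07, 0.17 and -0.20 in the mutant libraries, -0.04 and 0.08 in Mx1_Cre6261 and Mx1_Cre6266, and 0.03 and -0.11 in Mx1_Cre1 and Mx1_Cre2. The part of these cells in the result was not tested. The mitochondrial share of reads was 0.363% to 1.11% with 62xx titles and 0.681% to 1.17% without.

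The wild-type pairs were also set against each other, in the fit that took each pair as a group. The fit over all wild-type libraries together counts a difference between the pairs as spread, so its calls cannot be compared with those given here. Mx1_Cre6261 and Mx1_Cre6266 were higher than Mx1_Cre1 and Mx1_Cre2 in 6 members, Hspa1a, Hspa1b, Dnajb1, Hspb1, Bag3 and Hsph1, and lower in 0. The background was broad, since 24.1% of all tested genes were called higher and 20.9% lower. The log2 difference was 10.03 for Hspa1a (SE 1.57, limma, adjusted p = 0.00100) and 7.62 for Hspa1b (SE 1.45, limma, adjusted p = 0.00234). The first depends on the value added before taking logs, and was 8.53 with 8 added. Dnajb1 had 2.71 (SE 0.44) and Hspb1 3.09 (SE 0.91), with limma's adjusted p at 0.00127 and 0.0193. Bag3 and Hsph1 had smaller differences of 0.68 and 0.54. The 4 remaining members, Hspa8, Hsp90aa1, Hsp90ab1 and Dnaja1, had 0.19, -0.23, 0.02 and -0.11 and were not called. The same pairs also differed in depth, with 28710304 and 28537617 reads in Mx1_Cre6261 and Mx1_Cre6266 and 22555594 and 22990781 in Mx1_Cre1 and Mx1_Cre2, and in the length slope given above.

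The choice of wild-type pair therefore set the sign for several members. Against Mx1_Cre6261 and Mx1_Cre6266, the mutant libraries were lower in Dnajb1, by -1.54 (SE 0.41, limma, adjusted p = 0.0108), and in Hsph1, by -0.75 (SE 0.16, limma, adjusted p = 0.00450). They were higher in Hsp90aa1, by 0.47 (SE 0.15, limma, adjusted p = 0.0245). In this comparison 22.1% of all tested genes were called higher and 24.7% lower, so 1 and 2 of 10 members are no more than the background. Hspa1a had -1.93 (SE 1.43) and Hspa1b had -1.80 (SE 1.32), neither of them called. Against Mx1_Cre1 and Mx1_Cre2, where 0.312% of tested genes were called, 0 members were. There Hspa1a had 8.10 (SE 1.43, limma, adjusted p = 0.0536), Hspa1b 5.83 (SE 1.32), Hspb1 2.86 (SE 0.83) and Dnajb1 1.17 (SE 0.41). Hsp90aa1 had 0.25 (SE 0.15) and Hsph1 had -0.21 (SE 0.16), the same signs as against the other pair. Hspa8 had -0.05 against Mx1_Cre6261 and Mx1_Cre6266 and 0.14 against Mx1_Cre1 and Mx1_Cre2, and Hsp90ab1 had 0.18 and 0.20 in the same order. Dnaja1 had 0.11 and 0.00, and Bag3 had -0.39 and 0.29. All comparisons with the mutant libraries share those libraries.

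**Figure D3:**
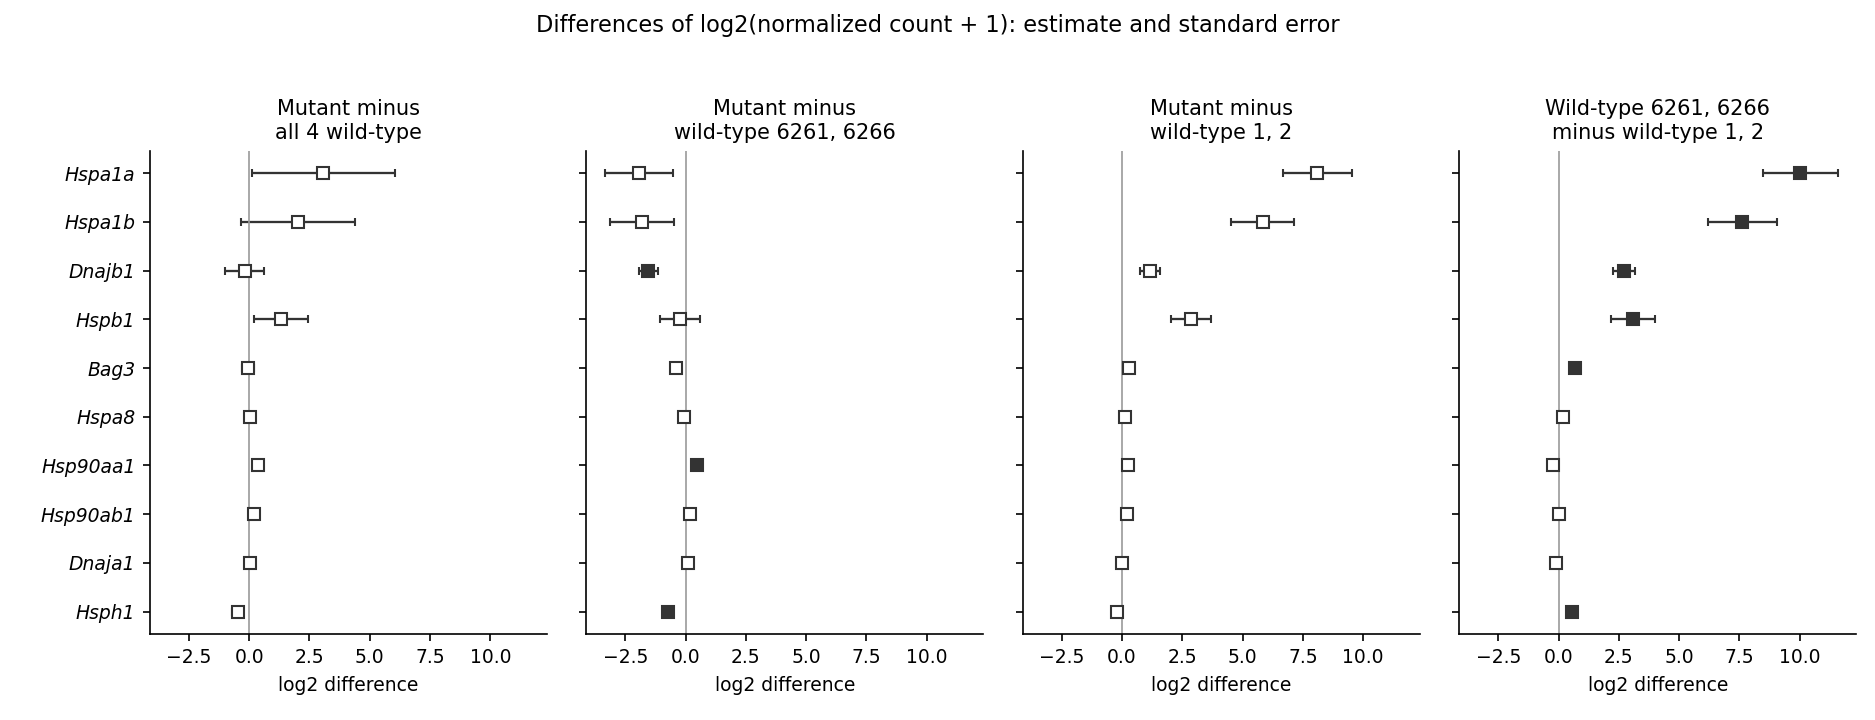
Difference of mean log2(normalized count + 1) for each gene (squares) with limma's standard error (bars), in 4 comparisons. The legend and library names use the last part of the titles. Filled squares have an adjusted p under 0.05. Hspa1a stands at -1.93 against Mx1_Cre6261 and Mx1_Cre6266 and at 8.10 against Mx1_Cre1 and Mx1_Cre2, and the wild-type pairs differ from each other by 10.03.

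A fit with 4 groups, chosen after seeing the data, compared the genotypes among libraries with 62xx titles and among the others. Among libraries with 62xx titles, the mutant minus wild-type difference was -0.07 for Hspa1a (SE 0.63) and -0.0064 for Hspa1b (SE 0.44). The members called there were Hsp90aa1 at 0.45 (SE 0.15, limma, adjusted p = 0.0324), Dnajb1 at -1.24 (SE 0.36, limma, adjusted p = 0.0189) and Hsph1 at -0.72 (SE 0.17, limma, adjusted p = 0.00618), 3 of 10 members against 41.8% of all tested genes. A fit on those 4 libraries alone did not call Hsp90aa1 (0.45, limma, adjusted p = 0.0589). Among the other libraries, DEL52_OT1865 stood alone against Mx1_Cre1 and Mx1_Cre2 and was assumed to vary like the rest. There 0.168% of tested genes and 0 members were called. Hspa1a had 4.38 (SE 0.77, limma, adjusted p = 0.0584) and Hspa1b had 2.24 (SE 0.54). The difference between these differences was -4.46 for Hspa1a (SE 0.998, limma, adjusted p = 0.0224), the 1 member called against 8.03% of tested genes. With edgeR it was -4.10 and was not called (adjusted p = 0.0807). Within the mutant genotype, DEL52_6244 and DEL52_6246 were higher than DEL52_OT1865 in Hspa1b by 5.37 (SE 0.54, limma, adjusted p = 0.00479), 1 of only 4 genes called (0.0249% of those tested). Hspa1a had 5.57 (SE 0.77, limma, adjusted p = 0.0612), and with 8 added before logs it had 5.47 and was called (limma, adjusted p = 0.00408).

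Per length, both HSP90 genes and Hspa8 led. Mean summed FPKM over all 7 libraries was 1080.4 for Hsp90ab1, 777 for Hspa8 and 743 for Hsp90aa1. Each library had Hsp90ab1 highest, whereas Hspa8 and Hsp90aa1 changed places between libraries and did not differ beyond their spread. Dnajb1 followed at 162, with a range of 45.5 to 343, and Dnaja1 at 82.2, with a range of 69.6 to 95.1. Hspa1b and Hspa1a had 60.4 and 42.2, with lowest values of 0.342 and 0.0281 and highest of 164 and 123. Hsph1 at 24.1, Bag3 at 8.23 and Hspb1 at 5.67 were the lowest. The ratio of Hsp90aa1 to Hsp90ab1 in FPKM was 0.768, 0.624 and 0.753 in the mutant libraries, against 0.582 and 0.518 in Mx1_Cre6261 and Mx1_Cre6266 and 0.757 and 0.769 in Mx1_Cre1 and Mx1_Cre2. DEL52_6244 and DEL52_OT1865 were thus at the level of Mx1_Cre1 and Mx1_Cre2, and DEL52_6246 lay between the pairs.

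The transcript table held 54 transcripts of the 10 genes, of which 36 reached 1 FPKM in 3 or more libraries. Limma called 0 of them between genotypes (smallest adjusted p 0.661) and 0 of all 30156 tested, with 2 member transcripts and 2077 of all transcripts at an unadjusted p under 0.05. The coding Hsph1 transcript with the smallest unadjusted p of the members (0.000765) had 5.04, 6.34 and 5.07 FPKM in the mutant libraries, against 12.02 and 12.9 in Mx1_Cre6261 and Mx1_Cre6266 and 10.7 and 10.4 in Mx1_Cre1 and Mx1_Cre2. Its mutant values all lay below its wild-type values, and its log2 difference was -0.95 (SE 0.19, limma, adjusted p = 0.661). The share of all transcripts with this pattern was not taken. Another coding Hsph1 transcript, with 56.9% of the gene's FPKM in mutant libraries, had 9.68, 11.2 and 12.6 FPKM there. It had 8.98 and 15.4 in Mx1_Cre6261 and Mx1_Cre6266 and 10.8 and 9.66 in Mx1_Cre1 and Mx1_Cre2. Its groups overlapped, and its log2 difference was 0.01 (SE 0.23, limma, adjusted p = 0.987). Dnaja1, whose total varied least, differed in make-up between libraries. One coding transcript had 43.0, 35.9 and 54.5 FPKM in the mutant libraries, against 21.0 and 23.4 in Mx1_Cre6261 and Mx1_Cre6266 and 54.5 and 51.4 in Mx1_Cre1 and Mx1_Cre2. One non-coding transcript had 7.40, 12.8 and 4.68 FPKM in the mutant libraries, against 21.3 and 19.9 in Mx1_Cre6261 and Mx1_Cre6266 and 3.25 and 4.45 in Mx1_Cre1 and Mx1_Cre2. The coding form was thus lowest, and the non-coding one highest, in Mx1_Cre6261 and Mx1_Cre6266. In Hsp90aa1, transcripts annotated as keeping an intron made up 41.8%, 36.3% and 37.4% of FPKM in the mutant libraries, against 41.0% and 30.6% in Mx1_Cre6261 and Mx1_Cre6266 and 38.4% and 38.0% in Mx1_Cre1 and Mx1_Cre2. These shares overlapped between genotypes. They are estimates from short reads, and no transcript difference between the wild-type pairs was tested.

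The genes with profiles most like inducible HSP70 were sought by the root mean square difference of log2 deviations over the 7 libraries from the mean of Hspa1a and Hspa1b. Hey1 (1.30), Egr4 (1.42), Gm43820 (1.67), Gpr3 (1.67) and Gdf15 (1.70) were nearest. Gdf15, a secreted factor of the TGF-beta family, had 1581, 2772 and 234 normalized counts in the mutant libraries, against 1718 and 2416 in Mx1_Cre6261 and Mx1_Cre6266 and 48.1 and 65.4 in Mx1_Cre1 and Mx1_Cre2. Egr4, an early growth response factor, had 112, 259 and 42.3 in the mutant libraries, against 449 and 457 in Mx1_Cre6261 and Mx1_Cre6266 and 2.19 and 2.08 in Mx1_Cre1 and Mx1_Cre2. Like inducible HSP70, both were high with 62xx titles and intermediate in DEL52_OT1865. Nearest to the flat profile of Hspa8 were Tnfrsf1a (0.028), Ppp6c (0.033), Cybc1 (0.037), Cnot6 (0.043) and Ccdc127 (0.046).

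Other genes of the chaperone network were taken from 10 lists, with 0 members of any list called over all 7 libraries. Of the heat shock factors and their binding proteins, 4 of 6 were tested. Hsf1 had 1906, 2476 and 1837 normalized counts in the mutant libraries, against 3926 and 3866 in Mx1_Cre6261 and Mx1_Cre6266 and 2318 and 2627 in Mx1_Cre1 and Mx1_Cre2, a log2 difference of -0.59. Hsf2, a second heat shock factor, and Hsbp1, which binds HSF1, had 0.23 and 0.50. Between the wild-type pairs, Hsf1 was higher (0.66) and Hsbp1 lower (-0.90) in Mx1_Cre6261 and Mx1_Cre6266 (limma, adjusted p = 0.0113 and 0.00291). The other cytosolic HSP70 and HSP110 genes had a median of -0.04 between genotypes over 6 tested, with 0.02 for Hspa4, 0.07 for Hspa14 and -0.30 for Hspa4l. The other J-domain genes had a median of 0.12 over 10, with 0.18 for Dnaja2, 0.15 for Dnajc7 and 0.38 for Dnajc2.
Of 9 HSP70 exchange and partner genes, 7 had positive differences between genotypes (median 0.18). The sign depended on the wild-type pair, since 7 were positive against Mx1_Cre6261 and Mx1_Cre6266 (median 0.46) and 2 against Mx1_Cre1 and Mx1_Cre2 (median -0.10). Bag1 and Hspbp1, nucleotide exchange factors, both had 0.25, and St13, which links HSP70 to HSP90, had 0.15. Between the wild-type pairs, 2 of these 9 were called higher and 6 lower in Mx1_Cre6261 and Mx1_Cre6266, where 24.1% of all tested genes were called higher and 20.9% lower. Of 15 HSP90 co-chaperones, 8 had positive differences between genotypes (median 0.09), with 0.16 for the kinase adaptor Cdc37, 0.00 for the immunophilin Fkbp4 and 0.18 for Nudc. Here too the sign depended on the pair, with 11 positive against Mx1_Cre6261 and Mx1_Cre6266 (median 0.38) and 2 against Mx1_Cre1 and Mx1_Cre2 (median -0.17). Between the wild-type pairs 2 of them were called higher and 8 lower in Mx1_Cre6261 and Mx1_Cre6266, against the same background. Of the 8 other genes listed as small heat shock proteins, 5 were tested, all 5 with positive differences (median 0.69), among them Hspb11 at 0.69 and Hspb6 at 0.05. Against Mx1_Cre6261 and Mx1_Cre6266 all 5 were positive (median 0.76). Against Mx1_Cre1 and Mx1_Cre2 3 were positive and 2 negative (median 0.22). Hspb8, a partner of Bag3, had 416, 207 and 347 normalized counts in the mutant libraries, against 203 and 165 in Mx1_Cre6261 and Mx1_Cre6266 and 94.0 and 91.4 in Mx1_Cre1 and Mx1_Cre2. All mutant libraries lay above all wild-type ones, as in 5.23% of all tested genes, and the difference was 1.25 (SE 0.38, limma, adjusted p = 0.538). Against Mx1_Cre1 and Mx1_Cre2 it was 1.73 and was called (limma, adjusted p = 0.0470), and against Mx1_Cre6261 and Mx1_Cre6266 it was 0.76 and was not (limma, adjusted p = 0.0559).

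The 8 mitochondrial chaperones had a median of 0.11 between genotypes, with -0.15 for Hspa9, 0.14 for Hspd1 and -0.02 for Trap1. The 6 ER paralogues had a median of 0.24, with 0.31 for Hspa5, 0.63 for Hsp90b1 and 0.18 for Dnajc3. Other targets of HSF1 had positive differences in 9 of 11 genes (median 0.25), with 0.54 for Ubb, a polyubiquitin gene. Rgs2, a regulator of G protein signalling, had 7239, 7811 and 6651 normalized counts in the mutant libraries, against 5362 and 6603 in Mx1_Cre6261 and Mx1_Cre6266 and 1355 and 2966 in Mx1_Cre1 and Mx1_Cre2. It was called against Mx1_Cre1 and Mx1_Cre2 (log2 1.85, limma, adjusted p = 0.0268) and had 1.06 over all libraries (SE 0.49). Between the wild-type pairs, 6 of these 11 were called higher and 3 lower in Mx1_Cre6261 and Mx1_Cre6266, against 24.1% and 20.9% of all tested genes.
Immediate early genes, which respond within minutes to handling and growth signals, were high in the same wild-type pair as the inducible heat shock genes. Fos had 56786, 134259 and 58041 normalized counts in the mutant libraries, against 135480.3 and 147158 in Mx1_Cre6261 and Mx1_Cre6266 and 4007 and 15386 in Mx1_Cre1 and Mx1_Cre2. Of the 16 listed genes, 14 had positive differences between genotypes (median 0.47, with 1.19 for Fos, 0.30 for Jun and 0.68 for Zfp36). Between the wild-type pairs 15 were called higher in Mx1_Cre6261 and Mx1_Cre6266 and 0 lower, against 24.1% and 20.9% of all tested genes, with a median of 3.33 against 0.01 for all tested genes. Against Mx1_Cre1 and Mx1_Cre2 all 16 had positive differences, with 3 called, where 0.312% of all tested genes were. Against Mx1_Cre6261 and Mx1_Cre6266 14 had negative ones, with 7 called lower, where 24.7% of all tested genes were called lower. Atf3 belongs to this list and to the HSF1 targets. The list's sum was 343614, 595270 and 278578 normalized counts in DEL52_6244, DEL52_6246 and DEL52_OT1865, 792097 and 781857 in Mx1_Cre6261 and Mx1_Cre6266, and 60837 and 148045 in Mx1_Cre1 and Mx1_Cre2.

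**Figure D4:**
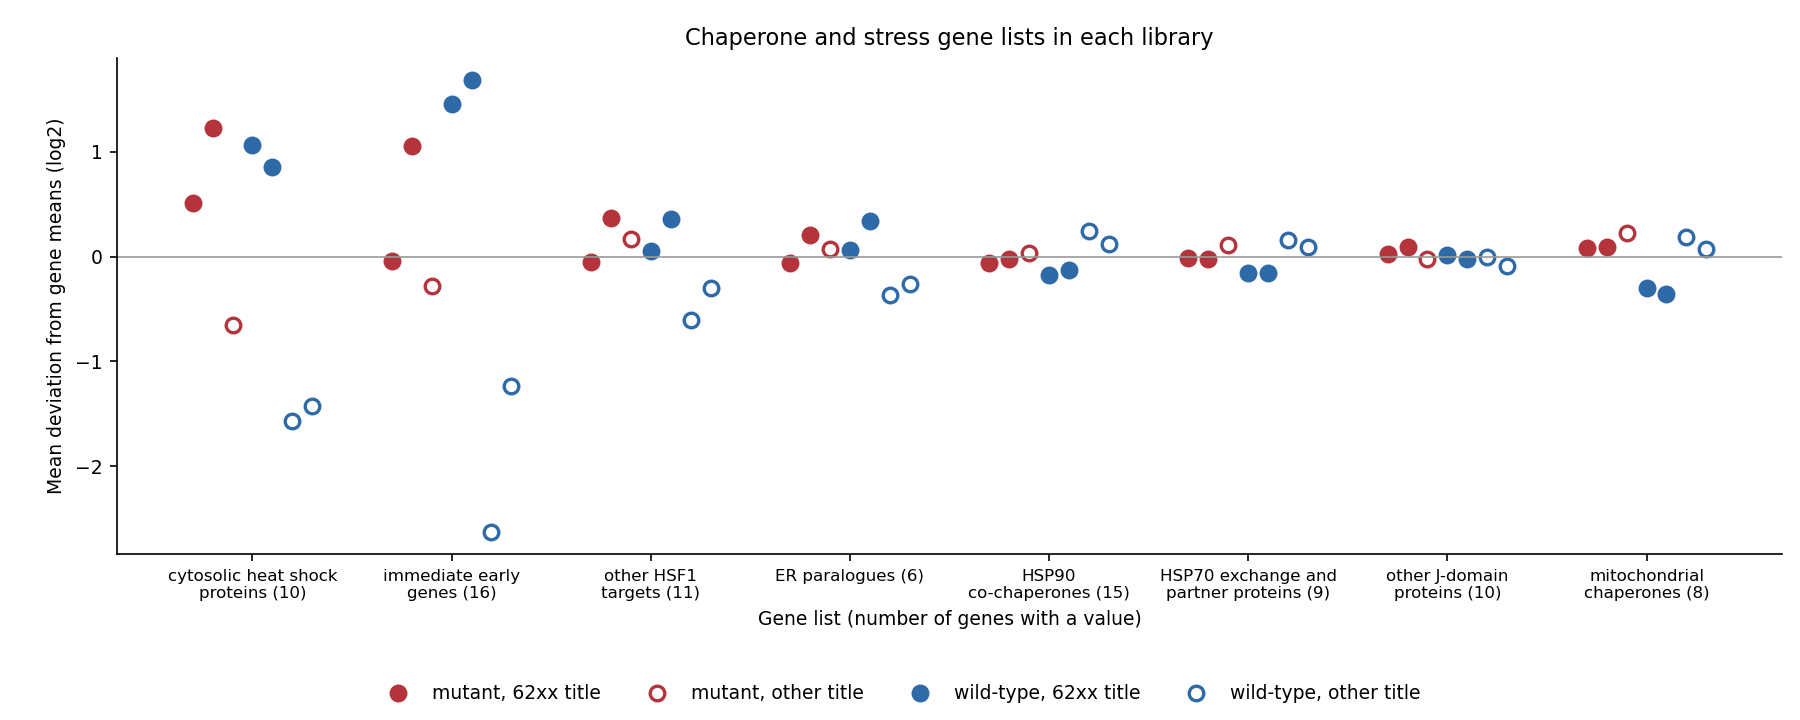
Mean log2 deviation from the gene means for 8 gene lists in each library, with mutant libraries (red) left of wild-type libraries (blue) and filled points for 62xx titles. The heat shock list runs from -1.57 (Mx1_Cre1) to 1.23 (DEL52_6246) and the immediate early list from -2.63 (Mx1_Cre1) to 1.68 (Mx1_Cre6266), while the HSP90 co-chaperones stay between -0.18 and 0.24.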

How the data were processed

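Per the submitters' processing notes, the authors worked on GRCm38 with DESeq2 1.12.4, Cufflinks 2.2.1, HTSeq 0.6.1, FastQC 0.11.7 and STAR 2.7.3a. The sources used here do not give their options. RNA was isolated with a PicoPure kit, converted and amplified as cDNA with SMART-Seq v4 and sequenced without strand, per the labels' protocols. The deposited gene signal was a normalized count per library. Divided by 1 step per library, 100% of values came out whole (tolerance 0.01 reads), so whole reads were recovered. The deposited transcript table held FPKM for 66660 transcripts.

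Genes with at least 10 normalized counts in at least 3 libraries were tested with limma 3.58.1 (R 4.3.3), with a trended variance, on log2(normalized count + 1) over 3 mutant and 4 wild-type libraries. P-values were two-sided and adjusted by Benjamini and Hochberg over all tested genes, with a threshold of 0.05. A second fit took each wild-type pair as a group. Transcripts were tested on log2(FPKM + 1). EdgeR 4.0.16 (quasi-likelihood) and DESeq2 1.42.0 on recovered reads were alternatives, with other pseudocounts, filters, scalings, weights and covariates and with libraries left out. The 4-group fit was added after seeing the data. Fits were tested on simulated reads. Positions came from GENCODE vM21 and promoters from RefSeq. Named were the 10 members, the 3 most abundant tested genes of each wider list, the nearest profiles, Calr and any listed gene that passed. Kit, Cd34, Cd48, the endothelial or stromal markers and single transcripts were named after their values were seen. A gene of the wider lists that this rule names is not reported here. The members and all lists were chosen with earlier results of these data known.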

Additional observations from a re-analysis of the deposited data

Results flagged for a closer look

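In 7 of 51 genes examined the mutant minus wild-type difference among libraries with 62xx titles differed from that among the other libraries, by the interaction term of the 4-group limma fit (adjusted p under 0.05 over all tested genes, as in 8.03% of them). On the log2 scale, within minus outside, the value was -4.46 for Hspa1a, -3.58 for Fos, -2.38 for Zfp36, -5.19 for Egr4, -4.35 for Gm43820, -2.005 for Gdf15 and 0.81 for Dnajc2. Egr4, Gm43820 and Gdf15 were examined because their profile over these libraries was like that of Hspa1a and Hspa1b, so their values are not separate from that of Hspa1a. Gm43820 had 0 counts in Mx1_Cre1 and Mx1_Cre2, and with 8 added before logs it had -2.07 and was not called (limma, adjusted p = 0.0578). The 6 negative values belong to genes whose lowest levels were in Mx1_Cre1 and Mx1_Cre2, with DEL52_OT1865 above them. For the heat shock member Hspa1a the differences were -0.07 within and 4.38 outside, and edgeR did not call the interaction (adjusted p = 0.0807). The comparison outside the 62xx titles holds 1 mutant library. Of 59 values examined for 1 library far from the others of its group, 0 were found.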

How the results depend on the processing

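Hsp90aa1 stayed positive and Hsph1 negative in all 24 alternatives (0.13 to 0.48 and -0.75 to -0.21). Over all 10 genes, 28 of 237 alternatives reversed the sign. Without Mx1_Cre1 and Mx1_Cre2, Hspa1a had -1.93, Hspa1b -1.80, Hspb1 -0.23 and Hspa8 -0.053. Without Mx1_Cre6261 and Mx1_Cre6266, Dnajb1 had 1.17, Bag3 0.29 and Dnaja1 -2.36e-06. Among 62xx titles alone, Hspa1a had -0.073, Hspa1b -0.0064 and Hspa8 -0.014. Outside them Dnajb1 had 0.55 and Bag3 0.14, and with the length slope added to the model 1.13 and 0.25. Quantile normalization gave Hspa8 -0.28, Hsp90ab1 -0.060 and Bag3 0.058, library weights gave Hspa8 -0.048, and summed FPKM gave Hspa8 -0.011. Leaving out 1 library at a time gave Hspa1a 1.08 to 4.94, Hspa1b 0.58 to 3.81, Hspb1 0.46 to 2.35, Hspa8 -0.036 to 0.090, Dnajb1 -0.72 to 0.32 and Bag3 -0.23 to 0.088. The cause was not tested.

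Limma called 0 genes in total with any 1 library left out. DESeq2 called 107. Without Mx1_Cre1 and Mx1_Cre2 limma called 6828 of 16047 genes, 3 of 10 members and 45 memberships of the wider lists. It also called 7 of 36 tested member transcripts there, against 6778 of all 30156 tested transcripts. Without Mx1_Cre6261 and Mx1_Cre6266 it called 51 genes, 0 members and 3 memberships of the wider lists. Among 62xx titles alone these were 6010, 2 (Dnajb1 and Hsph1) and 38, and outside them 1022, 3 and 23, in a fit with few residual degrees of freedom. With the title series as a covariate they were 3597, 1 and 17, and with the length slope 127, 4 and 14. The mutant libraries against Mx1_Cre1 and Mx1_Cre2 gave 50 calls with limma and 24 with edgeR, and DEL52_OT1865 against them 27 and 12. EdgeR called 0 members in the interaction. With 8 added before logs, 2 members were called between DEL52_6244 and DEL52_6246 and DEL52_OT1865. The Calr difference in summed FPKM was -0.13 (exact p = 0.0286). No paired analysis was possible because the groups share no replicate numbers. Reads of 1 and 7 for Hspa1a in Mx1_Cre1 and Mx1_Cre2 limit how precisely its difference can be given.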

Other observations

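The neutrophil and monocyte markers, 12 of 12 in the table, summed to 67577, 22776 and 28854 normalized counts in DEL52_6244, DEL52_6246 and DEL52_OT1865, against 99760.3 and 60822 in Mx1_Cre6261 and Mx1_Cre6266 and 64226 and 57460.4 in Mx1_Cre1 and Mx1_Cre2. Mpo, which encodes myeloperoxidase, had 4128, 539 and 801 normalized counts in the mutant libraries, against 12117 and 6558 in Mx1_Cre6261 and Mx1_Cre6266 and 5257 and 4737 in Mx1_Cre1 and Mx1_Cre2. Of the 12 markers, 9 had negative log2 differences between genotypes and 3 had positive ones. The 3 were Prtn3 (0.55), Csf1r (0.39) and Lyz2 (0.22), and 0 of the 12 were called.

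Hyou1 and Dnajb9, ER chaperones induced by unfolded protein, were highest where the inducible cytosolic genes were high in wild-type libraries. The other listed ER paralogues did not have this order. Hspa5 was highest in DEL52_6246, at 43443 normalized counts, against 35957 and 34555 in Mx1_Cre6261 and Mx1_Cre6266. Dnajb11 was lowest in Mx1_Cre6261 and Mx1_Cre6266, at 2086 and 2993, against 4241 and 4200 in Mx1_Cre1 and Mx1_Cre2. Dnajb9 had 470.0, 812 and 627 normalized counts in the mutant libraries, against 1678 and 1354 in Mx1_Cre6261 and Mx1_Cre6266 and 334 and 453 in Mx1_Cre1 and Mx1_Cre2. Hsp90b1, the ER form of HSP90, had 19621, 20011 and 21221 in the mutant libraries, against 9054 and 15693 in Mx1_Cre6261 and Mx1_Cre6266 and 15133 and 13599 in Mx1_Cre1 and Mx1_Cre2. Its mutant values all exceeded its wild-type values, a pattern found in 5.23% of all tested genes.
Mpo, the markers named beside it and the ER genes named here were chosen after their values were seen.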
